A study of Mus musculus with 12 samples.

Results

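The effect of STAT3C averaged over both treatments was taken from all 12 of the 12 libraries of a mouse bone marrow RNA-seq series. It is the mean of the log2 fold change of homozygous over control without treatment and the same fold change under short-chain fatty acids (SCFAs), so each of the 4 groups of 3 libraries has equal weight. Control mice carry no further genotype label; whether they had Cre or the uncut allele is not given in the sources used here. Homozygous mice are written STAT3Cstopfl/fl CD4Cre, except homozygous untreated 1, which is written R26STAT3Cstopfl/fl CD4Cre; the titles give all 6 as homozygous, and they were treated as 1 genotype. Mice were used at about 8 weeks; untreated mice received nothing, and SCFA mice drank water with SCFAs up to that age. Marrow of all groups was cultured for about 24 hours in alpha-MEM, and RNA came from the cells that did not adhere, which the labels call progenitors. Untreated libraries carry the date of day 1 and SCFA libraries that of day 30 of month 3, so each genotype difference lies within 1 date, while treatment and date cannot be told apart. Whether the 3 libraries of each group are separate mice is not stated in the labels; p-values then cover only the spread among them, which may be technical.

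STAT3 is a transcription factor that cytokine receptors of the interleukin 6 type activate by phosphorylation, and STAT3C is a form that stays dimerised and active without such a signal. The stop cassette keeps the transgene silent until Cre removes it, and the Cd4 promoter drives Cre mainly in developing and mature T cells, so most marrow cells would not express the active protein themselves. Interferon gamma, a product of T and natural killer cells, induces genes of antigen presentation and of cell-autonomous defence. B cells arise in marrow from progenitors in which Ebf1, Pax5 and the Rag recombinase act. Stefins (type A cystatins) are cytosolic inhibitors of cysteine proteases that neutrophil precursors express in mice.

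Total counts were 16954355 to 20748995 per library, and levels below are TMM-scaled CPM (counts relative to the scaled library total). Progenitor genes were present in every library (Kit 44.5 to 76.9 CPM, Mpo 909 to 2500 CPM), and late neutrophil genes together took 4.25% to 8.65% of the scaled library totals, so the cells labelled progenitors also held RNA of maturing neutrophils. T cell genes were low, with Cd3e at 1.08 to 4.20 CPM, levels of Stat3 overlapped between the genotypes without SCFA, and the transcript of the Rosa26 locus had 0 to 16 counts, so these counts do not check the genotype labels. Control untreated 2 stood apart from the other 11 libraries on the second principal component, and results that rest on it are named. Because these are bulk samples, fewer cells of a type and less RNA per cell cannot be told apart in any result below.

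Of 15674 genes tested, 562 rose (3.59%) and 1023 fell (6.53%) in the averaged difference at an adjusted p under 0.05. All adjusted p-values are from edgeR's quasi-likelihood F test with Benjamini-Hochberg adjustment over all genes tested. Falls were also the larger changes: 600 of the falls and 113 of the rises reached 2-fold. The separate differences called 1048 rises (6.69%) and 1275 falls (8.13%) without SCFA, and 1394 rises (8.89%) and 1328 falls (8.47%) under SCFA. Their difference, the interaction, was called in 3938 genes (25.1%). Leaving out 1 library kept the averaged count within 1.5 times, at 1245 to 2114. A fit with genotype and treatment as 2 additive terms, in which unequal differences count as spread, called 869 genes (all among the 1585), and the genes described below whose averaged call ends there are named. The count without SCFA ranged from 770 to 4333 and moved by more than that without control untreated 1, 2 or 3 or homozygous untreated 1 or 2. The count under SCFA was 1431 to 1738 without control SCFA 2 or 3 or homozygous SCFA 2 or 3, and the interaction was called in 2455 to 2579 genes without homozygous untreated 2, control SCFA 3 or homozygous SCFA 2. Over all genes the 2 differences, which share no library, had a Pearson r of 0.16 and a Spearman rho of -0.105, given as a description across genes. The mean is therefore a summary of unlike values for many genes, and the genes were sorted by how alike their 2 differences were.

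A gene was called alike when the averaged difference passed the test, both differences had the same sign, and the smaller was at least 0.5 of the larger on the log2 scale. This held for 208 genes that rose (1.33% of the genes tested) and 394 that fell (2.51%). The interaction was called in 3 of the 208 and in 29 of the 394, low shares that the rule itself sets by asking for like differences. A further 258 rises and 570 falls had 1 sign but unequal size, and 96 rises and 59 falls had opposite signs in the 2 treatments. The libraries of the genotypes did not overlap at either date for 312 genes that were higher in homozygous mice (1.99%) and 654 that were lower (4.17%). With plain library totals in place of TMM scaling these were 204 and 809. Averaging also added 118 genes called in neither single difference (45 rises, 73 falls). All of them were alike, which this selection itself largely sets. Among the falls, 72.9% were larger under SCFA, against 40.6% of the rises.

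**Figure D1:**
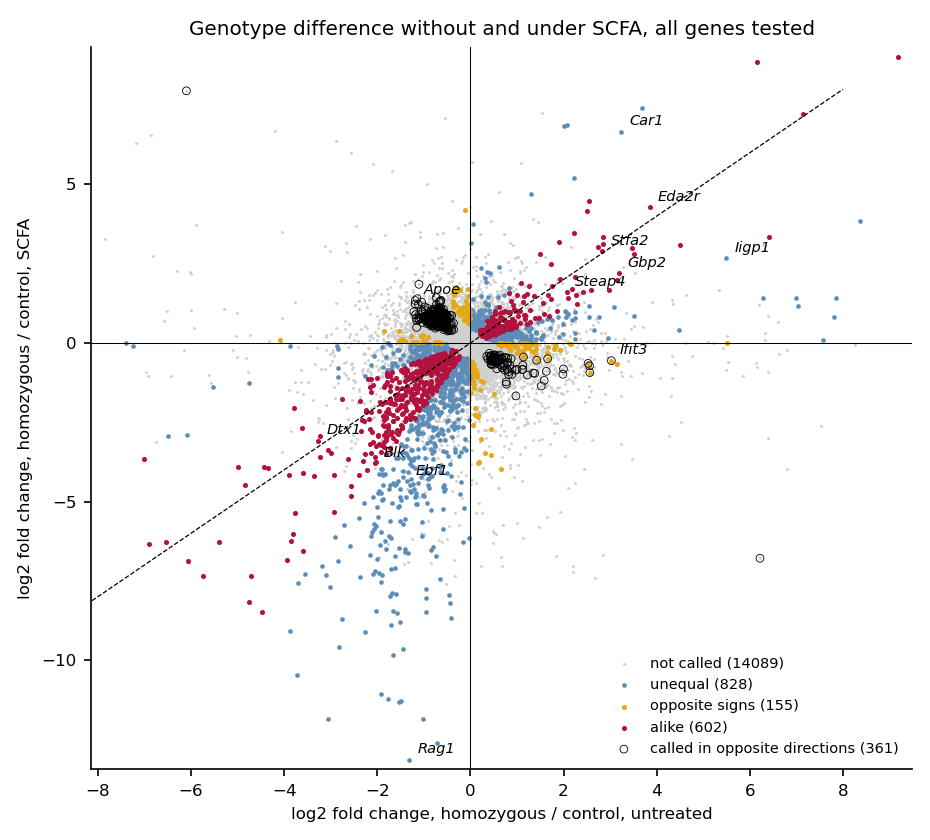
Genotype log2 fold change (homozygous over control) without SCFA on the horizontal axis and under SCFA on the vertical axis, 1 point per gene tested, coloured by how alike the 2 differences were; the dashed line marks equal differences and rings mark the 361 genes called in opposite directions. Falls reach further down the vertical axis than along the horizontal one. The 602 alike genes lie around the dashed line, as far from it as a smaller difference of 0.5 of the larger allows.

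The stefin cluster of chromosome 16 rose in both treatments, with 7 of 8 members called in each. All 8 members that passed the filter on low counts rose in the averaged difference, with a median log2 fold change of 2.42 (2.41 without SCFA, 2.46 under it, against 0.0073, -0.035 and -0.025 over all genes). 7 of the 8 were alike, the interaction was called in 0 of 8 by edgeR (0 at an unadjusted p under 0.05; 0 by DESeq2 and 2 by limma-voom), and the libraries of the genotypes did not overlap at either date for any of the 8. Over all genes tested, 3.59% rose on average and 1.99% were higher with no overlap at either date. The listed members BC100530 and Csta1 were not among the genes tested. Copies in this cluster are close relatives, so reads may have been divided among them by the counting, and their summed level is the safer value: 71.7 to 228 CPM in control untreated, 483 to 815 CPM in homozygous untreated, 212 to 282 CPM in control SCFA and 710 to 935 CPM in homozygous SCFA libraries. The sums of the genotypes did not overlap at either date. Their medians went from 123 to 667 CPM without SCFA and from 217 to 727 CPM under it, a smaller ratio under SCFA that was not tested as a sum. Of the abundant members, Cstdc4 rose by 2.28 and 1.52 and Stfa2l1 by 2.10 and 1.43 without and under SCFA. The upstream sequences of 3 members are shown because they share a run of bases. Each line gives the 160 bases before the start site, 5′ to 3′, from RefSeq on GRCm38.p6, with the shared run in capitals.
Stfa1 (chr16:36276988-36277147, plus strand): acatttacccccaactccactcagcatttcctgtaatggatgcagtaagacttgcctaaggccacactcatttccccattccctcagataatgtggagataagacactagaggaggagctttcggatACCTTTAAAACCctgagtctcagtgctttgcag
Stfa2 (chr16:36408364-36408523, minus strand): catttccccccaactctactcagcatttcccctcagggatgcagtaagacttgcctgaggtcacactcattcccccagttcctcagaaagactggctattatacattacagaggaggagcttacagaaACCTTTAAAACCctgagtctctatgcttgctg
Cstdc4 (chr16:36184052-36184211, plus strand): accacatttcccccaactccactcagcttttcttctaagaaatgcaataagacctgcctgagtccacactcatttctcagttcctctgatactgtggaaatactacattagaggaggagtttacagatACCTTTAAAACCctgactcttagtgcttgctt

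The run of 12 bases is the longest one shared by the most stefin promoters, and it was searched in the given orientation only. It stood in 6 of the 7 stefin promoters that the RefSeq table holds, Csta2 being the exception. Among the 10757 tested genes with a promoter it was found in 7, and the gene beyond these 6 was Csta3, another gene of the type A cystatin family. Csta3 was tested but is not in the stefin list, so the counts of that list do not cover it, and its genotype difference is not given here. It was chosen from these promoters and is a description, and whether any protein binds it was not tested.

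Stfa2 was at 4.39, 1.29 and 3.52 CPM in the control untreated libraries, 27.1, 21.5 and 17.1 CPM in homozygous untreated, 2.71, 3.82 and 6.4 CPM in control SCFA, and 35.7, 28.9 and 30.9 CPM in homozygous SCFA. Every homozygous library lay above every control library. The averaged log2 fold change was 2.86 ± 0.26 (SE, adjusted p = 2.65e-06), and the difference between the 2 treatments was 0.059, with a 95% interval from -1.03 to 1.15. Csta2 (averaged log2 fold change 3.10 ± 0.20, adjusted p = 6.06e-08), Cstdc5 (2.89 ± 0.24, adjusted p = 8.65e-07), Stfa1 (1.98 ± 0.23, adjusted p = 3.04e-05), Cstdc4 (1.90 ± 0.21, adjusted p = 2.15e-05) and Stfa2l1 (1.77 ± 0.26, adjusted p = 0.00027) also rose. Each of these 5 had intervals of the interaction that included 0.

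Most genes that interferon gamma induces rose in the averaged difference. Of 19 members tested, 17 rose and 0 fell (13 rose with additive terms), where 3.59% of all genes tested rose and 6.53% fell. The median of the 19 was 1.10 (1.45 without SCFA and 0.74 under it). Without SCFA 17 rose and 0 fell, and under SCFA 11 rose, 7 were not called and 1 fell. The fall was Gbp9, named after its values were seen, which was at 0.74 (adjusted p = 0.0020) without SCFA and -0.85 (adjusted p = 0.00042) under it. 12 of the 19 were higher with no overlap of the genotypes at either date, against 1.99% of all genes tested. But 13 had a called interaction, against 25.1% of all genes tested, and only 4 were alike, so the rise was shared in sign more than in size. Gbp2, a guanylate-binding GTPase (chr3:142620602-142638008 on mm10), was at 34.0, 21.8 and 37.8 CPM in control untreated libraries and 299.6, 292 and 267 CPM in homozygous untreated ones. Under SCFA it was at 27.2, 27.3 and 40.9 CPM in controls and 161, 132 and 147 CPM in homozygous libraries. The genotypes were far apart at both dates. The averaged log2 fold change of Gbp2 was 2.70 ± 0.15 (SE, adjusted p = 9.94e-09), and the rise was smaller under SCFA by 0.99 on the log2 scale (interval -1.58 to -0.40, adjusted p = 0.019). Igtp, an immunity-related GTPase, rose by 1.10 ± 0.08 (adjusted p = 1.95e-07), alike at 1.39 without SCFA and 0.80 under it.

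Promoters of such genes often hold elements of the form that interferon-regulated factors bind, and the upstream windows of Gbp2 and Calhm6 are printed with matches to GAAANNGAA (or its reverse, TTCNNTTTC) in capitals. The window of Steap4 is printed with a match to the STAT form TTCNNNGAA in capitals. Ifit3, described further on, is shown for contrast, since it holds interferon matches but moved in opposite directions.
Gbp2 (chr3:142620503-142620662, plus strand): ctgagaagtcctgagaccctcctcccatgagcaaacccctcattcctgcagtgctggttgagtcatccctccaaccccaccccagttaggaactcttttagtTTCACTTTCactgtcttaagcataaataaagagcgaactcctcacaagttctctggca
Calhm6 (chr10:34127973-34128132, minus strand): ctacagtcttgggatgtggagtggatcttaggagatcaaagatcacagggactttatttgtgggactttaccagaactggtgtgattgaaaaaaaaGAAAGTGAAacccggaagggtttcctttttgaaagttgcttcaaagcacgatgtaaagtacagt
Steap4 (chr5:7960312-7960471, plus strand): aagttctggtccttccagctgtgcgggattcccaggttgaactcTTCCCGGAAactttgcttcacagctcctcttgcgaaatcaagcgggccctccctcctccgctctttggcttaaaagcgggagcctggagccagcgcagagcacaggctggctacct
Ifit3 (chr19:34583369-34583528, plus strand): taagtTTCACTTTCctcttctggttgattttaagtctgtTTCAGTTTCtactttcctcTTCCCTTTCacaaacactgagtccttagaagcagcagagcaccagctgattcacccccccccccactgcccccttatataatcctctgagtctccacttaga

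Over 250 bases before the start and on both strands, the interferon form was in 18.0% of the 167 alike risers with a promoter, 6.91% of the 275 alike fallers and 6.67% of all 10757. The STAT form was in 12%, 5.45% and 6.11% of the same sets. Among the 69 genes with a promoter that were called as rises without SCFA and falls under it, the interferon form was in 20.3%. The form CCCNNGGG, which the B cell factor Ebf1 binds, was in 10.8%, 14.5% and 15.2%. The interferon form was in 11 of the 12 promoters of interferon-gamma response genes and in 11 of the 22 of type I interferon response genes. In the same 2 sets the STAT form was in 7 of the 12 and 2 of the 22. The 3 forms were searched separately and may overlap one another, and a match does not mark a bound site.

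**Figure D2:**
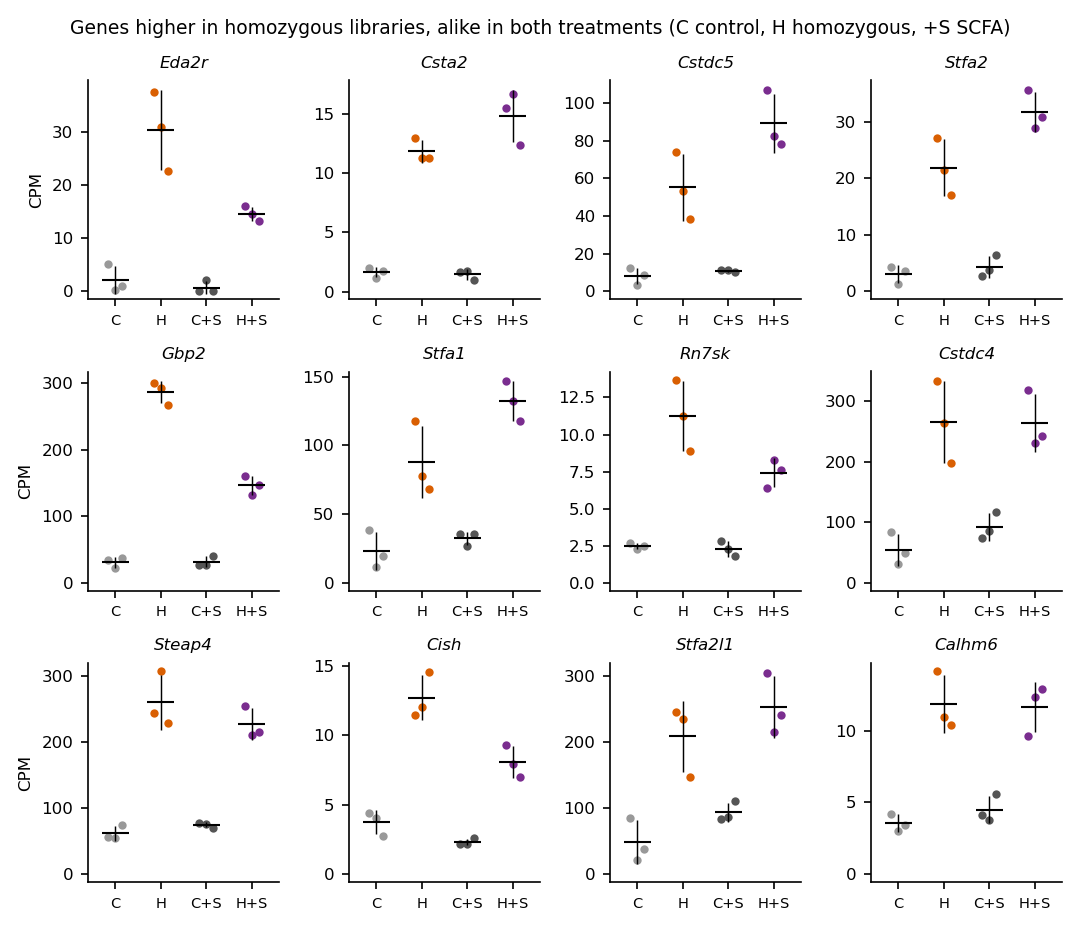
Level in CPM (vertical axes) of the 12 largest alike rises in each library, by group (C control, H homozygous, +S under SCFA); points are libraries, horizontal lines group means and vertical lines 1 SD of 3 libraries. In every panel all homozygous points lie above all control points of the same date.

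Outside these families the alike rises were of mixed kinds. Eda2r, a receptor of the tumour necrosis factor family (chrX:97333840-97377216 on mm10), was at 5.13, 0.27 and 1.03 CPM in control untreated, 37.7, 31.0 and 22.7 CPM in homozygous untreated, 0, 2.11 and 0.059 CPM in control SCFA and 16, 14.6 and 13.3 CPM in homozygous SCFA libraries. The genotypes did not overlap, but the low control counts made the fold imprecise: 4.07 ± 0.62 (adjusted p = 0.00047), with an interval of the interaction from -2.12 to 3.00. Steap4, a metalloreductase of the cell surface, was at 54.4 to 74.3 CPM in control untreated, 228 to 306 CPM in homozygous untreated, 70.1 to 76.7 CPM in control SCFA and 209.8 to 254 CPM in homozygous SCFA libraries. Its averaged log2 fold change was 1.84 ± 0.11 (adjusted p = 2.59e-08).

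Cish, a feedback inhibitor of cytokine signalling that STAT5 induces, rose by 1.77 ± 0.17 (adjusted p = 5.81e-06). Its 2 differences were 1.76 and 1.79, with an interval of the interaction from -0.68 to 0.75. Calhm6, a calcium homeostasis modulator, rose by 1.56 ± 0.17 (adjusted p = 1.92e-05). Rn7sk, the small nuclear RNA that holds the elongation factor P-TEFb inactive, rose by 1.93 ± 0.19 (adjusted p = 4.91e-06), although a poly(A) library captures such an RNA poorly.

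Some cytotoxic and basophil genes gave further alike rises. Of 9 NK and cytotoxic markers tested, 3 rose and 0 fell, where 3.59% of all genes tested rose and 6.53% fell. Ncr1 and Eomes did not pass the filter on low counts. The summed NK and cytotoxic markers were at 98.5 to 109 CPM in control untreated against 137 to 145 CPM in homozygous untreated libraries. Under SCFA the sums overlapped, at 103 to 125 CPM against 119 to 128 CPM, and 3 markers rose and 1 fell. Gzmb, the protease granzyme B, was at 0.11 to 0.80 CPM in control untreated and 3.41 to 4.31 CPM in homozygous untreated libraries. Under SCFA it was at 0.76 to 0.89 CPM in controls and 6.95 to 7.76 CPM in homozygous libraries. These are low levels with no overlap of the genotypes, and the averaged log2 fold change was 2.98 ± 0.33 (adjusted p = 1.98e-05). Ccl5, a chemokine of cytotoxic cells, rose by 0.99 ± 0.16 (adjusted p = 0.00055). Of 15 eosinophil, basophil and mast cell markers tested, 6 rose and 0 fell (1 fell without control untreated 2). Without SCFA 5 rose and 0 fell, and under SCFA 5 rose and 2 fell. Their sums overlapped without SCFA, at 3110 to 3320 CPM in control against 3270 to 3860 CPM in homozygous libraries. Under SCFA the sums were 2170 to 2280 CPM against 2710 to 2920 CPM. Among the 6 averaged rises were the basophil protease Mcpt8 (0.88 ± 0.07, adjusted p = 1.23e-06) and Fcer1a, the alpha chain of the IgE receptor (1.42 ± 0.17, adjusted p = 3.44e-05), both alike. Mcpt8, Ctsg (0.44 ± 0.10, adjusted p = 0.0074) and Gzmb are neighbours on chromosome 14, between 56082166 and 56262260 on mm10. They were the 1 run of 3 adjacent alike rises found among tested genes with a GENCODE M21 position. Genes without such a position were left out of that search. No run held the alike stefin genes of chromosome 16, although RefSeq starts of several lie close together there.

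The MHC class I presentation genes rose in 10 of 14 members, with 0 falls and a median of 0.50 (0.49 and 0.65 in the separate differences); 5 rose with additive terms. Psmb9, a subunit of the immunoproteasome, rose by 0.72 ± 0.10 (adjusted p = 0.00024) and Tap1, a peptide transporter, by 0.89 ± 0.13 (adjusted p = 0.00035), both alike. Monocyte markers rose in 8 of 15, with 0 falls. Beside both lists, 3.59% of all genes tested rose and 6.53% fell. Ly6c2, the antigen of inflammatory monocytes, rose by 0.70 ± 0.08 (adjusted p = 4.03e-05), but its differences were unequal at 1.11 and 0.29. Ms4a6c did likewise, at 1.01 and 0.31. The summed monocyte markers were at 5630 to 7020 CPM in control untreated against 9420 to 10200 CPM in homozygous untreated libraries, and at 7360 to 8130 CPM against 9810 to 11100 CPM under SCFA. The part of these cells in the rise of interferon and presentation genes was not tested. Without control untreated 1 or homozygous untreated 3, and by DESeq2 and limma-voom, 1 monocyte marker fell.

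Most genes of the B lineage fell in the averaged difference, where 6.53% of all genes tested fell. All 10 B lineage transcription factors fell, with a median of -2.35, and 11 of 13 B cell receptor and signalling genes fell, with a median of -2.25. All 8 V(D)J recombination and pre-B receptor genes fell, with a median of -3.86, and 6 of 9 mature B cell surface markers fell, with a median of -0.95. The V(D)J and pre-B receptor median was -3.7 by DESeq2, -3.31 by limma-voom and -2.87 with additive terms. Rag1 and Rag2 of that list had 0 counts in all 3 homozygous SCFA libraries, where a fitted fold has no bound, so its medians are imprecise. No member of these 4 lists rose in the averaged difference, and with additive terms 4 of the 8 V(D)J and pre-B receptor genes and 4 of the 9 mature markers fell. In the order transcription factors, receptor and signalling genes, V(D)J and pre-B receptor genes and mature markers, 9 of 10, 12 of 13, 4 of 8 and 5 of 9 fell without SCFA, and 10, 12, 8 and 4 fell under it. The 1 rise under SCFA was the lymphotoxin gene Ltb, named after its values were seen (-1.18, adjusted p = 0.0014, without SCFA, and 0.90, adjusted p = 0.0052, under it). The transcription factors summed to 901 to 1040 CPM in control untreated against 321 to 365 CPM in homozygous untreated libraries, and to 937 to 987 CPM against 114 to 135 CPM under SCFA. In the first 3 lists the fall was larger under SCFA (medians -3.42, -2.74 and -6.48) than without it (-1.32, -1.49 and -0.93). The interaction was called in 29 of the 31 members, against 25.1% of all genes tested. Mature surface markers did not share that order (-0.80 under SCFA, -1.02 without).

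Cd79b, the beta chain of the B cell receptor complex (chr11:106311341-106314762 on mm10), was at 259, 314 and 282 CPM in control untreated and 88.8, 84.6 and 97.2 CPM in homozygous untreated libraries. Under SCFA it was at 242, 249 and 216 CPM in controls and 28.5, 30.5 and 29.95 CPM in homozygous libraries. No library of one genotype reached the other. Its averaged log2 fold change was -2.33 ± 0.09 (adjusted p = 1.99e-10), with -1.66 without SCFA and -2.99 under it. Cd79b stands between Gh and Scn4a, the 1 run of 3 adjacent alike falls found among tested genes with a GENCODE M21 position. Without strand information and with neighbours so close, reads of the 3 may not be fully separated.

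Dtx1, a ubiquitin ligase of the Notch pathway, fell most among the named alike genes. It was at 13.5 to 25.8 CPM in control untreated, 1.49 to 2.56 CPM in homozygous untreated, 13.4 to 15.3 CPM in control SCFA and 1.37 to 2.20 CPM in homozygous SCFA libraries. The averaged log2 fold change was -3.17 ± 0.21 (adjusted p = 7.16e-08), and the interval of the interaction ran from -0.66 to 1.05. The kinase Srpk3 was likewise even, at -2.34 and -2.43 (average -2.38 ± 0.29, adjusted p = 5.98e-05), and Slc15a2, a peptide transporter, fell more without SCFA (-3.78) than under it (-2.06), with an average of -2.92 ± 0.39 (adjusted p = 0.00013).

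The other alike falls of largest size were greater under SCFA. Blk, a Src family kinase of B cells, fell by 2.05 on the log2 scale without SCFA and fell by 3.78 under it (average -2.91 ± 0.16, adjusted p = 8.93e-09). Tnfrsf13c, the receptor for the survival factor BAFF, averaged -2.43 ± 0.10 (adjusted p = 9.75e-10) and Ly6d, a marker of early B cell commitment, -2.41 ± 0.13 (adjusted p = 6.91e-09). Pafah1b3, a lipid hydrolase subunit, averaged -2.52, Chchd10, a mitochondrial protein, -2.37, Tmem108 -2.88 and Jakmip1 -2.35. In each of these 7 the interaction was called.

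**Figure D3:**
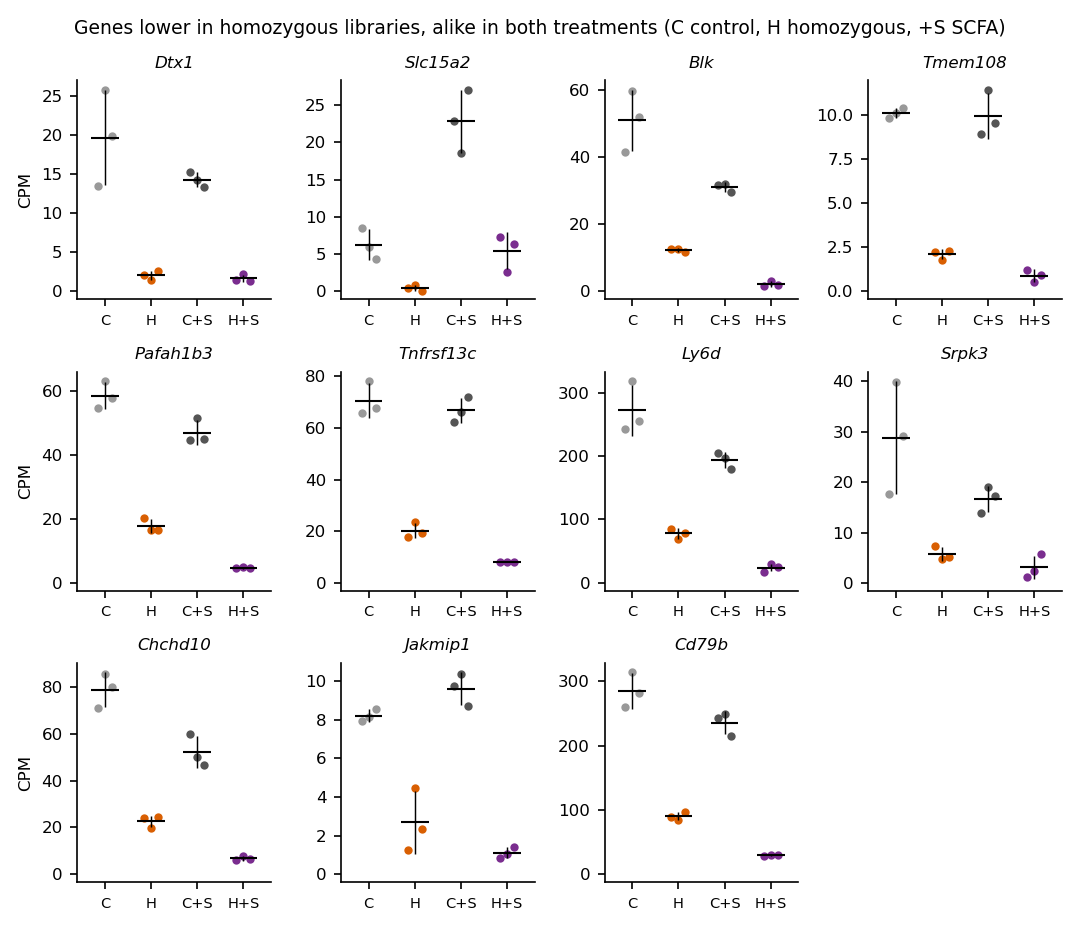
Level in CPM (vertical axes) of 11 of the 12 largest alike falls in each library, by group (C control, H homozygous, +S under SCFA); points are libraries, horizontal lines group means and vertical lines 1 SD of 3 libraries. In every panel all homozygous points lie below all control points of the same date.

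Markers of plasma cells fell in 3 of 6 tested members and rose in 1, where 6.53% of all genes tested fell and 3.59% rose. Sdc1, the surface proteoglycan of plasma cells, was even at -1.52 and -1.76 (average -1.64 ± 0.16, adjusted p = 4.70e-06), while Irf4, a transcription factor of late B cells, was not, at -1.39 and -3.24. Of the plasmacytoid dendritic cell markers, 7 of 10 fell and 1 rose, and Spib, a factor that B cells share, averaged -2.93 ± 0.14 (adjusted p = 2.67e-09). Ebf1, the early B cell factor, was at 119 to 121 CPM in control untreated and 41.9 to 52.2 CPM in homozygous untreated libraries, and at 162 to 184 CPM against 8.02 to 8.60 CPM under SCFA. It averaged -2.86 ± 0.09 (adjusted p = 5.79e-11) but was unequal, at -1.35 and -4.36, as was Bach2, at -1.45 and -4.24. Single libraries decided the 1 rise in each of the plasma cell and plasmacytoid lists: it was lost without any 1 of control untreated 3, homozygous untreated 1, control SCFA 2, control SCFA 3 or homozygous SCFA 2 in the first, and without control untreated 3 or homozygous untreated 3 in the second, and both were lost with additive terms. Cd72, an inhibitory coreceptor, averaged -2.99 and Ms4a1, which encodes CD20, -2.31, both unequal.

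Erythroid genes fell in 9 of 16 members and rose in 3, where 6.53% of all genes tested fell and 3.59% rose. The sum of the erythroid genes was 19100 to 20900 CPM in control untreated, 9860 to 12900 CPM in homozygous untreated, 11900 to 14000 CPM in control SCFA and 3000 to 3360 CPM in homozygous SCFA libraries. Hba-a2, an alpha globin with a near-identical copy, fell alike by 1.97 on the log2 scale (SE 0.13, adjusted p = 7.16e-08), and Alas2, the first enzyme of heme synthesis in red cells, fell by 1.61 (SE 0.11, adjusted p = 7.32e-08). Car1, an erythroid carbonic anhydrase, moved the other way. It was at 0 to 1.65 CPM in control untreated, 6.76 to 8.27 CPM in homozygous untreated, 0 to 1.37 CPM in control SCFA and 45.5 to 59.4 CPM in homozygous SCFA libraries. The homozygous libraries were higher at both dates, by far more under SCFA, and the averaged log2 fold change was 4.95 ± 0.55 (adjusted p = 2.00e-05). The fold rests on low control counts.

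Falls that were of 1 sign but unequal were led by genes with 0 counts in all 3 homozygous SCFA libraries, where a fitted fold has no bound. Against a floor of 3 counts over the group, Rag1, which cuts DNA in V(D)J recombination, was at least 1097-fold lower under SCFA, and was 43.9, 44.3 and 35.7 CPM in control untreated against 19.5, 17.3 and 13.03 CPM in homozygous untreated libraries. Its partner Rag2 was at least 758-fold lower under SCFA, while its difference without SCFA did not pass the test (-0.72, adjusted p = 0.081). Col5a3, Gfra1, Tnfrsf19 and Sertad4 were at least 447, 451, 312 and 259-fold lower under SCFA, and had log2 fold changes of -3.05, -1.02, -1.52 and -1.91 without it. The averaged values of these 6 genes are set by the zeros and are not given; with additive terms Rag1, Rag2 and Gfra1 were not called (adjusted p = 0.0562, 0.126 and 0.0714). Vpreb3, of the pre-B receptor, averaged -3.37 ± 0.15 (adjusted p = 1.33e-09), at -1.55 and -5.18.

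Of the 258 unequal rises, 94 were larger under SCFA and the others without it. Iigp1, an interferon-induced GTPase, averaged 4.09 ± 0.31 (adjusted p = 3.03e-07), at 5.49 without SCFA and 2.68 under it. Apol11b, of the apolipoprotein L family, averaged 1.79 ± 0.10 (adjusted p = 1.39e-08), at 2.76 and 0.81. Ifi205 and Gbp6 averaged 1.55 and 1.53, and for both the difference under SCFA alone did not pass the test (0.14, adjusted p = 0.84, and 0.40, adjusted p = 0.49). Colec12, a scavenger receptor, was the 1 of the 6 with its rise under SCFA (3.74, against 0.07 without). Its averaged value of 1.90 ± 0.55 (adjusted p = 0.041) was no longer called in 9 of the 12 fits that each left out 1 library, nor by DESeq2 (adjusted p = 0.084) or with additive terms (0.291), where the averaged call of Ifi205 was lost too (0.109).

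Type I interferon genes rose without SCFA and most did not rise under it. Without SCFA 23 of 29 members rose and 0 fell, while under SCFA 3 rose, 9 fell and 17 were not called, and 7 were called in opposite directions. In the averaged difference 19 rose and 2 fell (3.59% and 6.53% over all genes tested), with a median of 0.55 from 1.22 and -0.34. The interaction was called in 25 of the 29, against 25.1% of all genes tested. With additive terms 5 rose and 0 fell, and the averaged calls of Ifit3 (adjusted p = 0.281), Ifit1 (0.431), Ifit2 (0.377), Oas1g (0.524) and Oasl2 (0.0776) were lost. Ifit3, an antiviral protein that binds foreign RNA together with Ifit1, was at 14.99, 16.5 and 18.4 CPM in control untreated, 139.9, 135 and 132 CPM in homozygous untreated, 15.4, 18.5 and 18.4 CPM in control SCFA and 9.44, 14.7 and 11.4 CPM in homozygous SCFA libraries. Homozygous libraries lay far above controls without SCFA and just below them under SCFA. The averaged value of 1.24 ± 0.11 (adjusted p = 3.14e-06) stands for 3.03 and -0.56. Ifit1, Ifit2 and Oas1g averaged 0.92, 0.94 and 0.82 from a like pair of values, and the call of Oas1g was lost in 3 of the 12 fits without 1 library. Oasl2 rose by 2.13 without SCFA and was at -0.025 under it, while the nucleic acid sensor Zbp1 rose in both, by 1.89 and 0.83.

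The Ifi200 family of DNA sensors had the same form: 9 of 10 rose without SCFA, 5 fell under it, and 4 rose in the average with 0 falls (1 with additive terms), at medians of 1.40 without SCFA and -0.50 under it. Ifi204 averaged 0.87 (not called with additive terms, adjusted p = 0.143) and Ifi211 1.13. For Ifi213 and Ifi27l2a the opposite values cancelled, and the averaged difference did not pass the test (0.50, adjusted p = 0.14, and 0.083, adjusted p = 0.73). Without control untreated 2, 1 member of the family fell. Over all genes tested, 6.69% rose without SCFA, 8.47% fell under it and 3.59% rose in the average.

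In all, 361 genes (2.30%) were called in opposite directions, of which only 7 were called in the mean. Of these, 85 rose without SCFA and fell under it, and 276 did the reverse. The count rests on single libraries: leaving 1 out gave 63 (without homozygous untreated 2) to 1010 (without control untreated 1), and only without homozygous untreated 3 or homozygous SCFA 1 did it stay within 1.5 times. Of the genes of the reverse order with the largest interactions, Apoe, the lipid carrier, was at 668, 949 and 795 CPM in control untreated, 355, 301 and 407 CPM in homozygous untreated, 555, 481 and 424 CPM in control SCFA and 934, 1423 and 1337 CPM in homozygous SCFA libraries. Homozygous libraries were below controls without SCFA and above them under SCFA, and the averaged log2 fold change was 0.078 (adjusted p = 0.79). Itga2b, the platelet integrin, averaged 0.078 from -0.98 and 1.14, and Krt83, Dip2a, Myl9 and Rps4l averaged 0.13, 0.12, -0.11 and 0.35, none of them called.

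**Figure D4:**
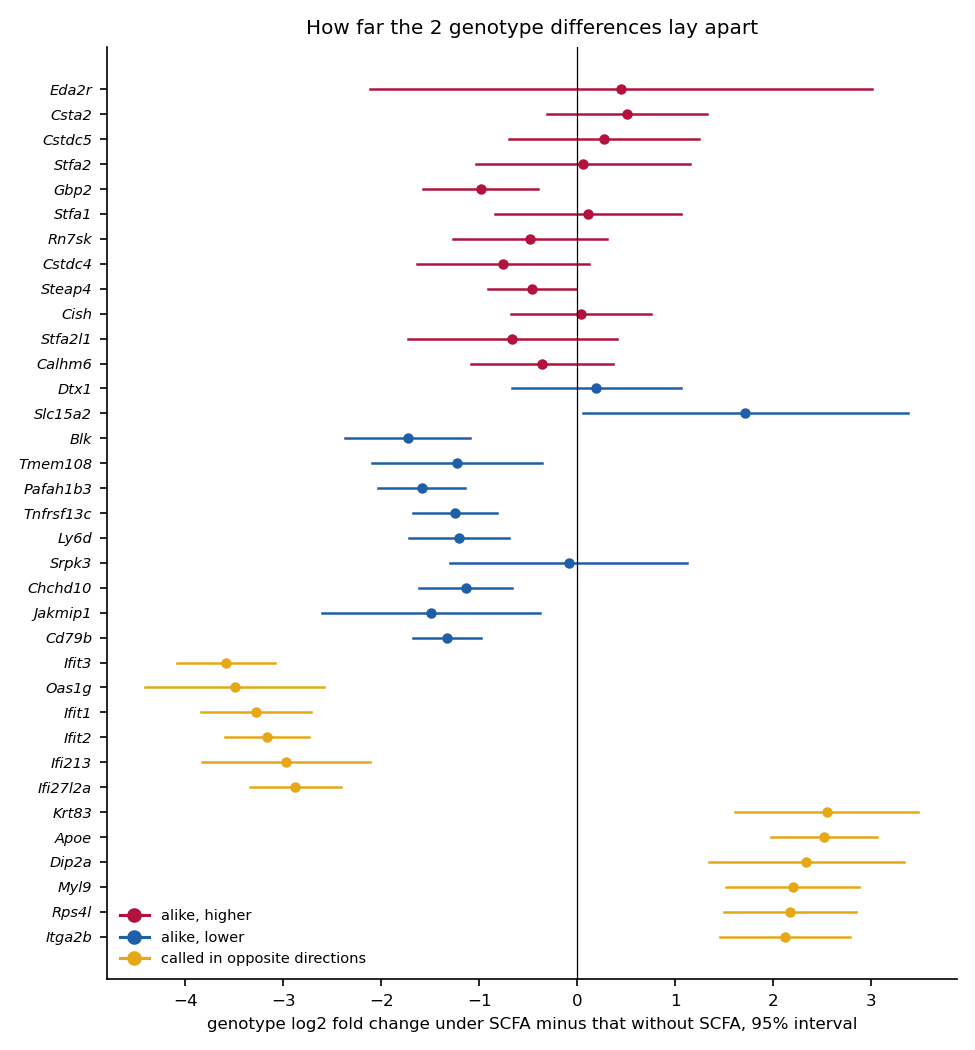
Genotype log2 fold change under SCFA minus that without SCFA (horizontal axis) with its 95% interval for 23 of the 24 alike genes with the largest averaged changes and the 12 named genes called in opposite directions. Intervals of the stefin genes include 0, those of most B lineage genes lie below 0, and those of Ifit3 and Apoe lie far to either side.

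Of 20 STAT3 and interleukin 6 family genes, 2 rose and 1 fell in the average, where 3.59% of all genes tested rose and 6.53% fell. Stat3 was at 274 to 438 CPM in control untreated, 267 to 322 CPM in homozygous untreated, 223 to 248 CPM in control SCFA and 319 to 397 CPM in homozygous SCFA libraries, and its averaged log2 fold change was 0.16 ± 0.11 (adjusted p = 0.44). Socs3, the feedback inhibitor that STAT3 induces, averaged 0.21 ± 0.14 (adjusted p = 0.41) from -0.67 and 1.09, which were both called. The separate differences of the list had 10 rises and 0 falls under SCFA and 2 rises and 4 falls without it. The averaged fall was Bcl2l1, which encodes the survival protein Bcl-xL (-0.77 ± 0.13, adjusted p = 0.00092). Il6st, the shared receptor chain gp130, rose by 0.41 ± 0.12 (adjusted p = 0.041), a call lost in 5 of the 12 fits without 1 library. The 2 rises of the list became 5 without control SCFA 1, 4 without homozygous SCFA 1 and 1 without control SCFA 2, control SCFA 3 or homozygous SCFA 3, and the falls became 2 without control untreated 1. The list had 6 rises and 2 falls by DESeq2, 7 and 2 by limma-voom, 5 and 1 with no low-count filter and 1 and 1 with additive terms, where the call of Il6st was lost (adjusted p = 0.0897).

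Of 15 osteoclast genes tested, 1 rose and 1 fell on average, where 3.59% of all genes tested rose and 6.53% fell. Calcr, Dcstamp, Ocstamp and Oscar were under the filter. Tnfrsf11a, the receptor RANK through which osteoclasts form, rose by 0.59 ± 0.14 (adjusted p = 0.011), at 1.0 without SCFA and 0.18 under it, a call that was lost with additive terms (adjusted p = 0.084). Acp5, the phosphatase TRAP, fell by 1.01 on the log2 scale (SE 0.17, adjusted p = 0.00079). Csf1r, the receptor for macrophage colony-stimulating factor, averaged 0.36 ± 0.11 (adjusted p = 0.064) and was called in 3 of the 12 fits without 1 library, with RLE factors (adjusted p = 0.0466), with no low-count filter (0.0119), by DESeq2 (0.0127) and by limma-voom (0.00697). The rises of the list became 3 without control untreated 1, control untreated 2 or homozygous SCFA 1 and 2 without homozygous untreated 2, and the falls became 3 without control untreated 1. DESeq2 and limma-voom each gave 3 rises and 3 falls, RLE factors 3 rises, no low-count filter 2 rises and additive terms 0 rises.

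Among SCFA receptors, transporters and activating enzymes, 1 of 6 rose and 1 fell, where 3.59% of all genes tested rose and 6.53% fell. Acss1, the mitochondrial acetyl-CoA synthetase, was at 56.0 to 83.8 CPM in control untreated, 24.1 to 32.7 CPM in homozygous untreated, 52.99 to 64.4 CPM in control SCFA and 19.3 to 21.3 CPM in homozygous SCFA libraries. It fell alike, by 1.41 on the log2 scale on average (SE 0.12, adjusted p = 1.22e-06). Hcar2, the receptor for niacin and butyrate, averaged 0.34 ± 0.10 (adjusted p = 0.044), a call lost in 8 of the 12 fits without 1 library and with additive terms (adjusted p = 0.175). Ffar2, the main SCFA receptor of myeloid cells, averaged 0.45 ± 0.16 (adjusted p = 0.093) and was called by DESeq2 (0.0465) and limma-voom (0.0259), and Ffar3 was under the filter. The list had 2 rises without control untreated 2, by DESeq2 or with no low-count filter, and 3 by limma-voom.

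T cell markers, the lineage in which the Cre acts, fell in 3 of 20 members and rose in 0, where 6.53% of all genes tested fell and 3.59% rose. Cd4 was at 5.01 to 8.46 CPM in control untreated, 3.41 to 7.29 CPM in homozygous untreated, 3.66 to 7.53 CPM in control SCFA and 0.54 to 3.08 CPM in homozygous SCFA libraries. The genotypes overlapped without SCFA, and the averaged -1.21 ± 0.36 (adjusted p = 0.044) was lost in 8 of the 12 fits without 1 library. Lck, a T cell kinase, averaged -0.53 ± 0.14 (adjusted p = 0.029), lost in 5 of the 12. Without control untreated 2, homozygous untreated 1, control SCFA 2, homozygous SCFA 1 or homozygous SCFA 2, 1 T cell marker fell. Cd8a averaged -0.92 ± 0.17 (adjusted p = 0.0020). With additive terms 0 T cell markers were called (adjusted p = 0.159 for Cd4, 0.136 for Lck and 0.0758 for Cd8a). The summed T cell markers were at 133 to 150 CPM in control untreated against 100 to 109 CPM in homozygous untreated libraries, and at 97.7 to 118 CPM against 113 to 117 CPM under SCFA.

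The remaining lists were thin or mixed, and their counts stand beside 3.59% rises and 6.53% falls over all genes tested. Neutrophil primary granule genes rose in 4 of 8 and late neutrophil genes in 6 of 16, with 0 falls in either; Ms4a3 averaged 0.39 ± 0.09 (adjusted p = 0.013) from values of opposite sign, and the collagenase Mmp8 rose alike by 0.50 ± 0.08 (adjusted p = 0.00039), while Camp, an antimicrobial peptide, averaged 0.45 from 0.0091 and 0.90. Without control untreated 3 the rises were 2 in each of these lists, and late neutrophil rises were 2 or 3 without homozygous untreated 1, control SCFA 1, control SCFA 3 or homozygous SCFA 2; primary granule rises were 2 without homozygous untreated 3. Stem and progenitor genes rose in 1 and fell in 2 of 12, the rise being lost in 6 of the 12 fits without 1 library and the falls being the transcription factors Sox4 (-1.83 ± 0.12, adjusted p = 7.43e-08) and Myb (-0.86 ± 0.08, adjusted p = 4.37e-06). MHC class II and dendritic cell genes rose in 5 and fell in 3 of 14, and without control untreated 3 the rises were 3. Without SCFA 0 of them rose and 5 fell (median -0.38), and under SCFA 6 rose and 2 fell (median 0.51). The interaction was called in 9 of the 14, and 1 was alike. On average H2-Ob, of B cells, fell by 1.54 on the log2 scale and Cd209a by 0.82. Macrophage markers rose in 2 of 12, Adgre1 by 0.41 and Vcam1 by 0.54 (1 marker fell without control untreated 1 or 2), and platelet genes in 1 of 10, which was Pf4 (0.60). Without SCFA 2 macrophage markers rose and 3 fell, and under SCFA 3 rose and 0 fell. Platelet genes had 1 rise and 2 falls without SCFA, and 6 rises and 0 falls under it. Ppbp averaged 0.42 (adjusted p = 0.051) and was called without control untreated 1 or homozygous SCFA 3, with no low-count filter (0.00221), by DESeq2 (0.0175) and by limma-voom (0.014). With additive terms primary granule, late neutrophil, class II and macrophage genes had 1 rise each and stem cell and platelet genes 0, and the calls of Ms4a3 (adjusted p = 0.386), Camp (0.166), Vcam1 (0.20) and Pf4 (0.0717) were lost.

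Histone deacetylases fell in 4 of 11, led by Hdac9 (-2.44 ± 0.13, adjusted p = 1.27e-08) and Hdac8 (-1.0 ± 0.12, adjusted p = 5.07e-05). Notch pathway genes fell in 3 of 9: Dtx1 and the target genes Hes1 (-1.98) and Hes5 (-2.44); 1 Notch pathway gene rose without control untreated 2. p53 target genes rose in 4 of 12, among them the cell cycle inhibitor Cdkn1a (1.03 ± 0.12, adjusted p = 4.84e-05), and 2 rose without control untreated 3, homozygous untreated 3, control SCFA 2 or homozygous SCFA 3. Unfolded protein and amino acid stress genes rose in 3 and fell in 1 of 12; the fall, Herpud1, was even, at -0.62 without SCFA and -0.61 under it (interval of the interaction -0.33 to 0.36), and Trib3 rose by 1.11. Inflammatory chemokines and cytokines rose in 2 and fell in 4 of 12, with Ccl3 at -0.73 and Il1b at 0.38; without 1 library the falls ranged from 1 to 4 and the rises from 1 to 2. With additive terms this list had 1 rise and 1 fall, and p53 target genes 2 rises.

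Immediate early genes fell in 3 of 15 on average, Jund (-0.70) and Egr3 (-1.65) among them, from 12 falls without SCFA and 8 rises with 1 fall under it. Glycolytic enzymes, heat shock genes, S phase genes, G2 and M phase genes, mitochondrially encoded genes, oxidative phosphorylation genes and cytosolic ribosomal protein genes had 0 calls in the averaged difference by edgeR. At an unadjusted p under 0.05 these lists held 9, 2, 1, 2, 0, 4 and 1 genes in that order, DESeq2 called 4, 1, 0, 0, 0, 3 and 0, and limma-voom 6, 2, 0, 0, 0, 3 and 1, all of them rises. Without control untreated 1, 5 oxidative phosphorylation genes, 2 heat shock genes and 1 ribosomal gene rose, and without control untreated 2, 4 glycolytic enzymes rose; without homozygous untreated 2, control SCFA 1 or homozygous SCFA 1, 2, 2 and 3 glycolytic enzymes rose in that order, and 1 oxidative phosphorylation gene rose without homozygous SCFA 1. With no low-count filter 3, 1 and 1 glycolytic, heat shock and oxidative phosphorylation genes rose, and with RLE factors 2 glycolytic enzymes. Several genes of these lists were called in the separate differences, such as 10 of 14 glycolytic enzymes that rose under SCFA. The plot of list medians shows how far the mean of each list stood from its 2 parts.

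**Figure D5:**
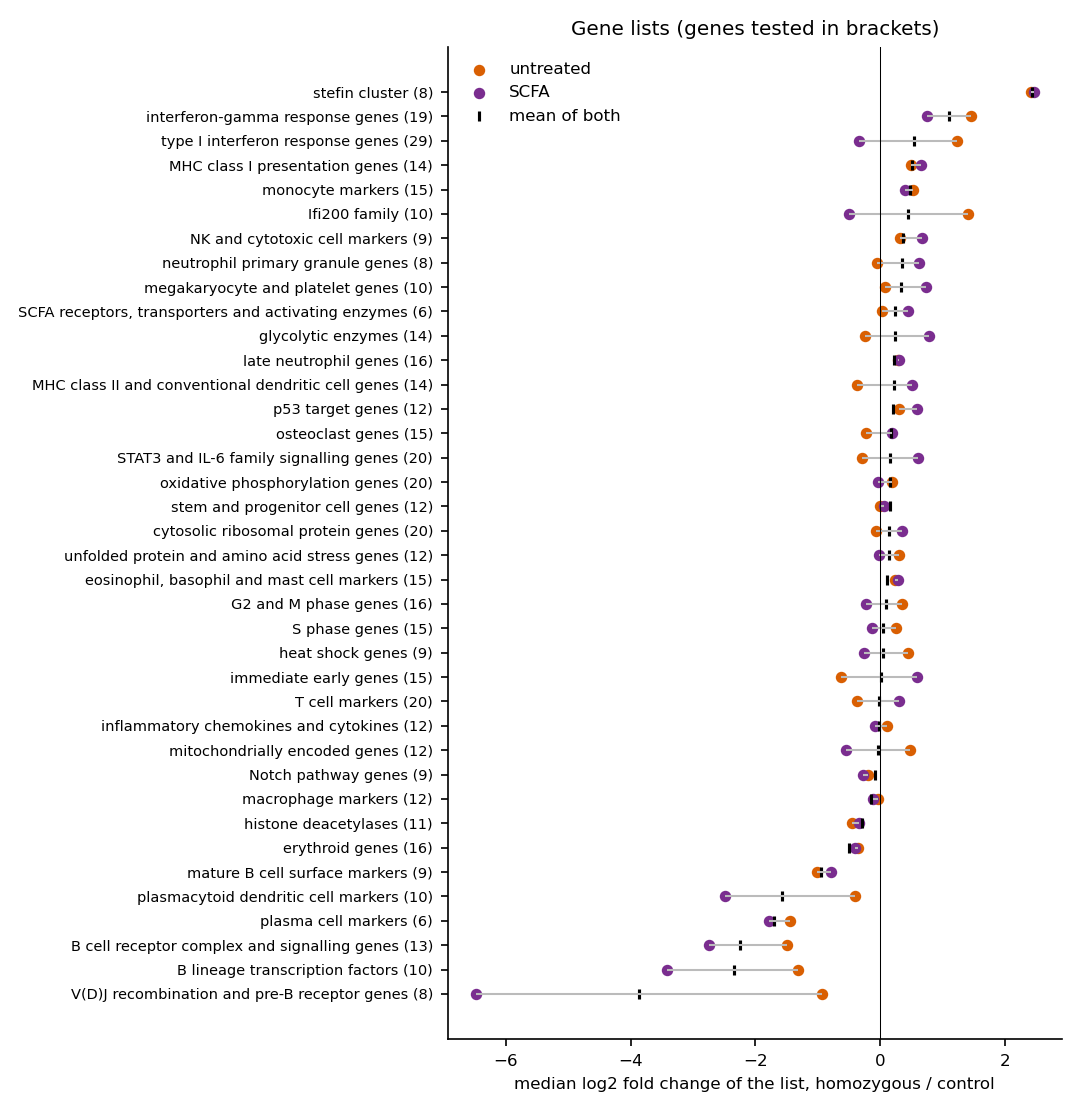
Median log2 fold change, homozygous over control (horizontal axis), of 38 gene lists without SCFA, under SCFA and as the mean of both, with the number of genes tested in brackets. The stefin cluster has all 3 marks beside each other near 2.4, the B lineage lists lie below 0 with the SCFA mark further out, and type I interferon and immediate early genes straddle 0.

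The alike genes were spread over the genome. Among tested genes with a GENCODE M21 position, they made up 2.65% to 5.25% on each autosome and 2.70% on the X chromosome. None lay on the Y chromosome or the mitochondrial genome.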

How the data were processed

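Non-adherent marrow cells gave RNA (Qiagen RNeasy Plus Micro) for low-input poly(A) libraries (Clontech), per the labels' protocols. The submitters' processing notes name STAR, featureCounts and mm10; their versions, the annotation and the use of strand were not given in the sources used here, so reads of overlapping or antisense genes and of near-identical copies may not be separated. The deposited values are raw counts per gene symbol, not normalized by the authors, for 55291 symbols, of which 22077 were at 0 in all 12 libraries. Coordinates came from GENCODE M21 (96.4% of symbols matched) and promoters from RefSeq (10757 of the 15674 genes tested matched). With totals of 16954355 to 20748995, a gene at 0 counts may have had up to 0.145 to 0.177 CPM in a library (3 counts, counting error only). All replicate pairs differed beyond counting noise, with chi-square values of 11.6 to 84.8 per degree of freedom.

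Counts were fitted with edgeR 4.0.16 in R 4.3.3 (TMM, filterByExpr by group, quasi-likelihood F test, 4 group means, Benjamini-Hochberg over the 15674 genes, threshold 0.05). The same fit gave the mean of the genotype differences, each difference and the interaction. Levels are CPM scaled by TMM factors. The procedure was tested on simulated counts. The members, the 38 gene lists and the tests were chosen with earlier results of these data known, so lists are described by counts and medians with no test of their own.

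Named genes were the 12 largest rises and 12 largest falls among alike genes, the 6 and 6 largest among called genes of 1 sign but unequal size, and the 6 largest interactions per order among genes called in opposite directions. The first groups had a mean of at least 5 CPM and, for alike genes, no overlap of the genotypes; unnamed gene models and antigen receptor segments were left out. From each list with a call the rule also takes the 3 genes of smallest p, of which at least the first 2 are given, and always Stat3, Socs3, Cd4, Tnfrsf11a, Csf1r and Ffar2. 1 gene that the rule takes is not reported here. Alternatives were DESeq2 1.42.0, limma-voom with quality weights (limma 3.58.1), RLE factors, no low-count filter, additive terms, the replicate number as a block, stricter and looser rules for alike genes, and each library left out in turn. Plain library totals were tried after seeing the data. Tables and figures used Python 3.11.15, pandas 2.3.3 and matplotlib 3.10.9.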

Additional observations from a re-analysis of the deposited data

Results flagged for a closer look

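The genotype difference under SCFA minus that without it, as log2, passed the interaction test (edgeR, adjusted p under 0.05) in 64 of the named genes. Some were named for the size of this value, which for them is a description. Negative values mean that homozygous over control was lower under SCFA. Among interferon-related genes and Apol11b the values were -0.989 for Gbp2, -0.585 for Igtp, -2.81 for Iigp1, -1.94 for Apol11b, -2.81 for Ifi205, -2.26 for Gbp6, -3.58 for Ifit3, -3.50 for Oas1g, -3.28 for Ifit1, -3.17 for Ifit2, -2.97 for Ifi213, -2.88 for Ifi27l2a, -2.16 for Oasl2, -1.06 for Zbp1, -1.90 for Ifi204 and -1.72 for Ifi211. All 16 were negative. The naming rule fixed that sign for Ifit3, Oas1g, Ifit1, Ifit2, Ifi213 and Ifi27l2a. Related named genes without a called interaction, such as Calhm6, Psmb9 and Tap1, are not listed here.

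Among genes of B cells and the genes that fell beside them, the values were -1.73 for Blk, -1.23 for Tmem108, -1.59 for Pafah1b3, -1.25 for Tnfrsf13c, -1.21 for Ly6d, -1.14 for Chchd10, -1.49 for Jakmip1, -1.33 for Cd79b, -3.01 for Ebf1, -2.79 for Bach2, -3.63 for Vpreb3, -2.30 for Cd72, -2.12 for Ms4a1, -1.85 for Irf4, -2.08 for Spib and -1.12 for H2-Ob. Fitted values of genes with 0 counts in all homozygous SCFA libraries depend on the prior count and bound nothing: -11.8 for Rag1, -11.9 for Rag2, -8.79 for Col5a3, -9.14 for Sertad4, -10.8 for Gfra1 and -9.80 for Tnfrsf19.

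In the other groups the negative values were -1.52 for Cd8a, -0.818 for Ly6c2, -0.700 for Ms4a6c, -1.24 for Vcam1, -1.29 for Ms4a3, -0.937 for Alas2, -0.772 for Sox4, -0.596 for Myb, -0.822 for Tnfrsf11a, -1.98 for Hdac9, -1.10 for Hdac8 and -1.66 for Hes1. Positive values were 3.43 for Car1, 3.68 for Colec12, 2.54 for Krt83, 2.52 for Apoe, 2.34 for Dip2a, 2.20 for Myl9, 2.17 for Rps4l, 2.12 for Itga2b, 0.890 for Camp, 1.01 for Acp5, 0.867 for Cdkn1a, 0.881 for Stat3, 1.76 for Socs3 and 1.21 for Csf1r. The treatments differ in date, so a difference between them cannot be told apart from one between dates.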

How the results depend on the processing

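Under the alternatives listed and with each library left out, 0 called values of named genes changed sign: over these fits, 2315 gene values kept their side of the threshold, 115 lost a call and 24 gained one. The averaged difference called 1585 genes, 1245 to 2114 without 1 library, 2483 with limma-voom, 869 with additive terms (all 869 among the 1585), and 713 when a 2-fold change was also asked for. Alike genes numbered 602, against 908 when the smaller difference had to reach 1 of 3 parts of the larger, 254 for 3 of 4 parts, 282 when each difference had to be called, and 487 to 677 without 1 library. In place of the size rule, asking that the interval of the interaction lie within the mean gave 201 genes. Of the 602 alike genes, 194 met that interval rule. Genotype without SCFA called 3922 genes with limma-voom and 770 to 4333 without 1 library, genotype under SCFA 4762 and 1431 to 3282, and the interaction 2455 to 5379 without 1 library. Genes called in opposite directions numbered 615 with no filter, 686 with DESeq2, 1185 with limma-voom and 63 to 1010 without 1 library. Replicate numbers did not pair the libraries (correlations of deviations at the same date -0.114 to 0.018), and the replicate block gave 1472 averaged calls, 1107 with the block within date, 576 alike genes and 258 opposite calls. The block ended the averaged calls of Colec12 (adjusted p = 0.0577), Il6st (0.0537) and Hcar2 (0.0583), and the block within date those of Tnfrsf11a (0.0582), Oas1g (0.08), Lck (0.052), Camp (0.063), Colec12 (0.0525) and Hcar2 (0.119). With 50 bases after the start added, the STAT, interferon and EBF forms were in 7.14%, 7.68% and 17.5% of all promoters. They were then in 13.8%, 19.8% and 12.6% of the alike risers and 7.27%, 7.27% and 18.9% of the alike fallers. The EBF share of the alike fallers thus lay above that of all promoters, while without these 50 bases it lay below. The cause of these shifts was not tested, beyond the fewer libraries or stricter rules themselves. With 3 libraries a group and a floor of 3 counts, folds of low genes such as Eda2r, Car1 and Gzmb are imprecise.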
